A study of Mus musculus with 4 samples.

Results

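The stretch of mouse chromosome 17 around Dll1 was examined through every non-control probe that the array files place on chromosome 17 with a start below 30 Mb. That rule gave 624 of the 41174 probes on the array, with starts between 3004135 and 29993743, and used position only. Of these, 569 passed the filter on dim spots, 55 did not, and 3 more lost a value to an outlier spot. The remaining 566 probes, for 406 gene names, had a log2 ratio of mutant over wild type in both mutant lines. Coordinates are those of the array files, which do not name a genome build.

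Messenger RNA had been measured in neurospheres, spheres of cells that neural stem cells form in suspension, kept without serum and with EGF. The groups were the Dll1 mutant line Dll1-5, the Dll1 mutant line Dll1-3 and wild-type neurospheres, all from 129/Sv mice crossed with C57BL/6. What the mutation in each line is was not given in the sources used here. Each line was set against wild type on 2 arrays of 2 colours with exchanged dyes, the replicate number giving the orientation, and each line's pooled RNA of 3 preparations counted as 1 replicate. That is a reading: per the design text there were 2 biological replicates, each a pool and each dye-swapped, and the labels do not say whether these are the 2 lines or 2 pools of a line. A log2 ratio of 1 is a 2-fold difference, and a positive ratio is a higher level in the mutant.

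Dll1 is a membrane ligand that binds Notch receptors on a neighbouring cell. Binding releases the receptor's inner part, which joins the DNA-binding protein RBPJ and switches on target genes. In neural stem cells this signal between cells restrains differentiation into neurons. The proximal part of mouse chromosome 17 is also known for the t complex, a block of inversions with genes for sperm function, and for the imprinted Igf2r cluster. Genes on one chromosome segment are transcribed separately, but they tend to be inherited together.

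Each array's probe for Dll1 lay at chr17:13371312-13371371. Next to it on the telomere side, in the array's coordinates, lay a probe for the transcript AK044799 and then the probes for Fam120b. Fam120b is a coactivator of PPAR-gamma that the array files list under its clone name 4932442K08Rik. RefSeq's promoter table for GRCm38.p6 has 2 starts for Dll1 on the minus strand and starts for Fam120b on the plus strand, so the genes are transcribed away from each other. The promoters of both are shown because their probes were lower on every array, with values given further on. Each holds 300 bases across the start of transcription, in coordinates of GRCm38.p6, which are not those of the array. Capitals mark matches, on either strand, to the core of the RBPJ motif (TGGGAA) and to the E-box (CANNTG), the motif of basic helix-loop-helix factors.
Dll1 promoter, chr17:15375774-15376073: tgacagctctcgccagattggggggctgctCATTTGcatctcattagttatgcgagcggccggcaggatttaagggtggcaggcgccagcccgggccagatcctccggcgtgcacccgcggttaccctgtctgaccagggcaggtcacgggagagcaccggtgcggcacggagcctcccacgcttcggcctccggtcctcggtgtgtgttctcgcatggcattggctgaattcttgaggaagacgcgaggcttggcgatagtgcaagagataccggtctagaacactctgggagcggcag
Dll1 second promoter, chr17:15376883-15377182: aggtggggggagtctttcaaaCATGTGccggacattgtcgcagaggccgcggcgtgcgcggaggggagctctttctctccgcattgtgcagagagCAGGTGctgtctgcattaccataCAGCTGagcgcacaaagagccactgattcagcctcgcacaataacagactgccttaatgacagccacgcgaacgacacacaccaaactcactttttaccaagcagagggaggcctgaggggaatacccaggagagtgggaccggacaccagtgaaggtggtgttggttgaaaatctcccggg
Fam120b promoter, chr17:15395952-15396251: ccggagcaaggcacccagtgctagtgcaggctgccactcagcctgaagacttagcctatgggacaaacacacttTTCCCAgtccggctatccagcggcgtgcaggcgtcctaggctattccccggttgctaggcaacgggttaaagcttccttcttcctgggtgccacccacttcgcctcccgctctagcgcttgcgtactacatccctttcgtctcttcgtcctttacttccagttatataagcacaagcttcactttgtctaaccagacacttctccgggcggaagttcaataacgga
The first Dll1 promoter held 1 E-box, the second held 3, and neither held the RBPJ core. The Fam120b promoter held 1 RBPJ core, read on the opposite strand, and no E-box. No overlap of the motifs occurred in these windows. Among all 32851 RefSeq promoters of that length, 25.6% held the RBPJ core and 72.3% an E-box. The letters TATAAA were in none of the 3 promoters and in 13.6% of all of them.

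Dll1 itself was lower than wild type on every array. Its log2 ratios were -1.65 and -1.64 in Dll1-5 and -3.31 and -3.22 in Dll1-3, so both arrays of Dll1-3 lay well below both of Dll1-5. The lines averaged -2.46 ± 1.15 (SD, n = 2; adjusted p = 0.121 by limma). All 4 ratios go in the direction of the labels, but whether the probe lies in the mutated part of the gene is unknown. Dll1 was well above background in both channels of every array.

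Across the whole segment, the ratios were centred near 0 in both lines. The median log2 ratio over the 566 probes was 0.02 in Dll1-5, with quartiles of -0.14 and 0.19, and 0.02 in Dll1-3, with quartiles of -0.19 and 0.21. Over the 941 probes of chromosome 17 from 30 Mb on, the median was 0.00 in Dll1-5 and -0.01 in Dll1-3. The 32690 probes elsewhere had medians of 0.00 in Dll1-5 and 0.01 in Dll1-3. The median size of a ratio, whatever its sign, was 0.16 in Dll1-5 and 0.20 in Dll1-3 for the segment, and 0.17 in Dll1-5 and 0.22 in Dll1-3 for the probes elsewhere. The medians of the segment thus lay close to those of the rest of the array.

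No probe of the segment passed an adjusted p of 0.05 in limma's test of both line means against 0, nor did any of the 34197 probes tested on the array (0%). The smallest adjusted p was 0.0752 in the segment and over the array. The test had 1 residual degree of freedom. Without Dll1-5 replicate 2 it called 40 probes of the segment (7.07%), where 8.23% of all probes were called, and without Dll1-3 replicate 1 it called 34 (5.99%), where 6.99% were. At an unadjusted p under 0.05, 74 of 566 probes (13.1%) were higher in the mutants, where 11.7% of all probes were. Likewise 72 (12.7%) were lower in the mutants, where 15.2% of all probes were. Since every line was read as 1 pooled replicate, each array's value is given, and probes were counted that were at least 2-fold in one direction on all 4 arrays.

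By that count, 8 of 566 probes (1.41%) were at least 2-fold higher on all 4 arrays, and 1.41% of all probes were. Another 8 (1.41%) were at least 2-fold lower, where 2.25% of all probes were. These shares were near the background. The count depended on the scaling: with median centring in place of loess it was 4 higher and 1 lower, and with the scanner's own ratios 18 higher and 17 lower.

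**Figure D1:**
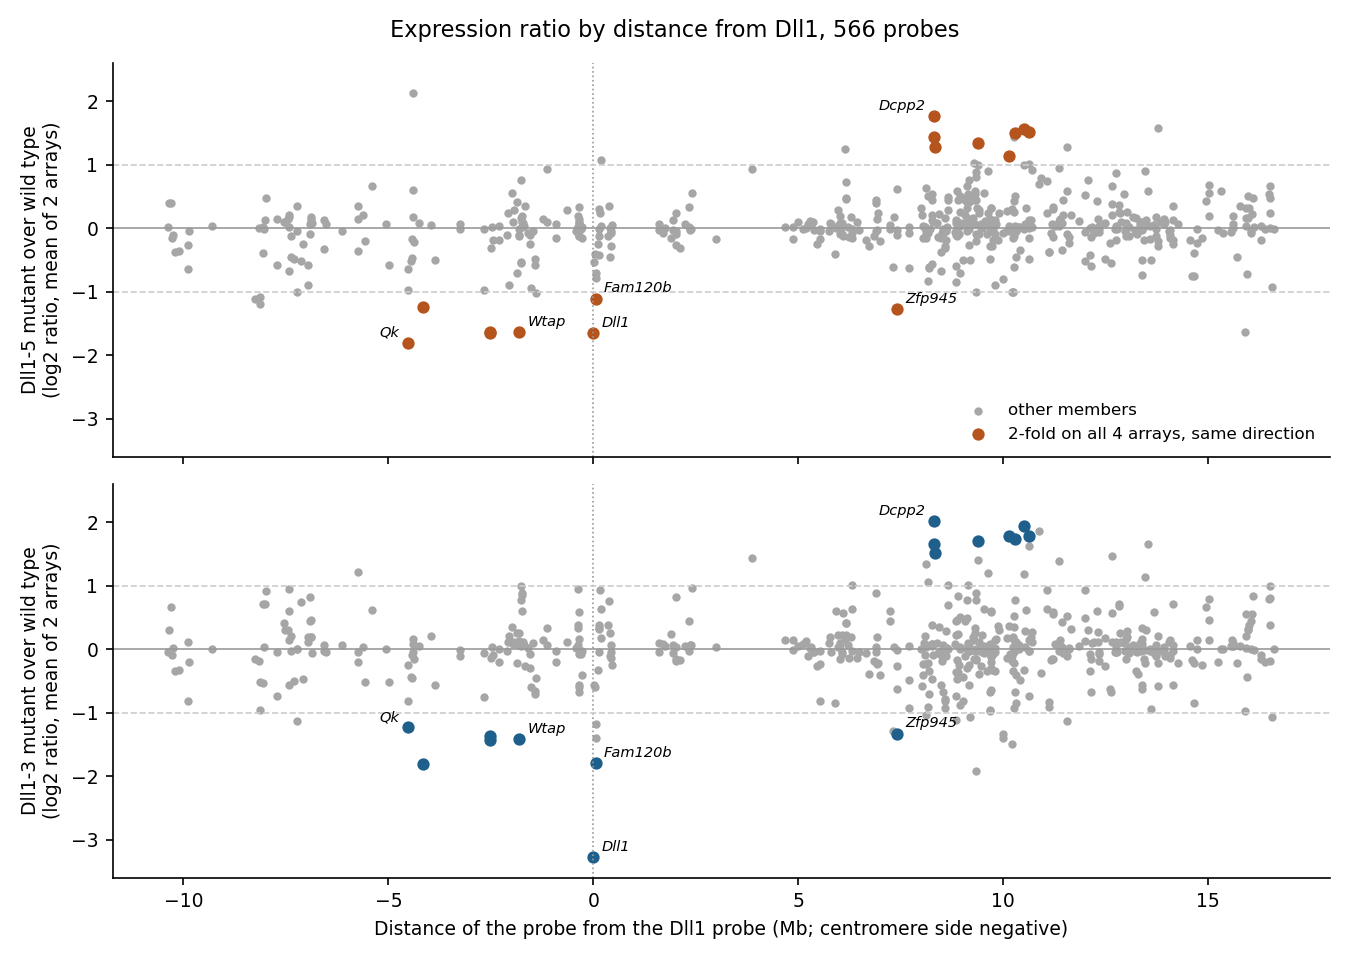
Log2 ratio of mutant over wild type (mean of 2 arrays) against the distance of each of 566 probes from the Dll1 probe in Mb, in Dll1-5 (upper panel) and Dll1-3 (lower panel). Coloured points are the 16 probes at least 2-fold on all 4 arrays, and dashed lines mark 2-fold. The 8 higher ones all lie on the telomere side, which holds 433 of the 566 probes.

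The probes nearest to Dll1 on the telomere side were lower too. From Dll1 on, 8 consecutive probes over 126.7 kb had ratios at or below 0 on every array: Dll1, the transcript AK044799, 4 probes for Fam120b, the sequence NAP102554-1, and Psmb1, a subunit of the proteasome. The next longest stretch of one sign in the segment held 5 probes. Stretches of 8 or more were found 39 times on all chromosomes, 21 lower and 18 higher, and the longest held 18 probes, so a stretch of this length was not rare on the array. With no background correction or an offset of 10, 7 of the 8 probes were lower on all arrays, and with median centring 6 of 8.

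After Dll1, Fam120b had the largest ratios of the stretch. The probe at chr17:13435501-13435560, 64.1 kb from Dll1, had ratios of -1.18 and -1.04 in Dll1-5 and -1.88 and -1.70 in Dll1-3. The lines averaged -1.45 ± 0.48 (SD, n = 2; adjusted p = 0.0915 by limma). All 4 arrays were past 2-fold, and as for Dll1 the 2 Dll1-3 arrays were the lower ones. The probe at chr17:13436988-13437047 had ratios of -0.73 and -0.84 in Dll1-5 and -1.35 and -1.45 in Dll1-3 (adjusted p = 0.11 in limma). At chr17:13436643-13436702 the ratios were -0.67 and -0.73 in Dll1-5 and -1.16 and -1.19 in Dll1-3 (limma adjusted p = 0.103). These 3 probes lie close together on one gene, so they are not independent, and gave the same order of the lines. The fourth Fam120b probe, at chr17:13407228-13407287, was closest to Dll1 and had the smallest ratios of them, with -0.35 and -0.47 in Dll1-5 and -0.46 and -0.71 in Dll1-3. It was also the dimmest, with log2 signals of 6.87 to 7.54, where the background offset shrinks ratios. Its mean over both lines was -0.50, and between -0.86 and -0.44 in the alternatives. Fam120b was lower on every array with every one of its 4 probes also under each other normalisation tried, median centring included.

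The other transcripts of the stretch showed smaller ratios with the normalisation used here. AK044799, a transcript 31.8 kb from Dll1 with no gene name in the tables used, had ratios of -0.53 and -0.52 in Dll1-5 and -0.61 and -0.53 in Dll1-3 (limma adjusted p = 0.0873). Its mean over both lines was -0.55, but -1.50 with the scanner's own ratios. NAP102554-1 had -0.18 and -0.32 in Dll1-5 and -0.30 and -0.37 in Dll1-3. Psmb1, 126.7 kb away, was lower in Dll1-5, at -0.45 and -0.41, but stood at 0.00 and -0.07 in Dll1-3. The stretch ended there in Dll1-3, and Psmb1's mean over both lines was above 0 with median centring.

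Beyond Psmb1 the ratios were at or above 0 in most probes up to 0.2 Mb. Both probes for Tbp, the TATA-binding protein, were near 0 in Dll1-5 and slightly higher in Dll1-3: one had -0.17 and -0.10 in Dll1-5 and 0.37 and 0.29 in Dll1-3. Pdcd2, a factor in ribosome assembly, had 0.31 and 0.29 in Dll1-5 and 0.40 and 0.24 in Dll1-3. All 4 arrays were higher and by similar amounts. One probe under the name Prdm9, a histone methyltransferase of meiotic recombination, had 1.05 and 1.11 in Dll1-5 and 0.63 and 0.62 in Dll1-3. The other Prdm9 probe had -0.09 and 0.17 in Dll1-5 and -0.01 and 0.35 in Dll1-3, where its wild-type signal was not well above background on either array. Further out, the 4 probes for Rgmb, a coreceptor for BMP ligands, had means over both lines between -0.11 and -0.04. They were dim, with log2 signals of 6.15 to 7.60, and the background offset shrinks ratios at low signal. A ratio near 0 there need not mean an unchanged level. The 3 probes for Chd1, a chromatin remodeller, had means between -0.28 and 0.13.

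On the centromere side the nearest measured probe lay at -279.6 kb from Dll1, and the 14 probes up to 0.5 Mb had no common direction. Phf10, a subunit of the neural progenitor BAF chromatin complex, had 0.15 and 0.23 in Dll1-5 and 0.93 and 0.98 in Dll1-3. Tcte3, a dynein light chain of the t complex, had 0.34 and 0.33 in Dll1-5 and 0.64 and 0.55 in Dll1-3. Both were higher on all 4 arrays and higher in Dll1-3 than in Dll1-5. AK089867, a transcript with no gene name in the tables used, had 2 probes, with means of 0.08 and -0.13 in Dll1-5 and of -0.59 and -0.67 in Dll1-3. Wdr27, a WD-repeat protein, had -0.05 as its mean in Dll1-5 and 0.02 in Dll1-3. Its log2 signal was low, at 6.25 to 6.35, where Phf10 had 12.21 to 13.24. Thbs2 and Smoc2, secreted matrix proteins farther out, had means over both lines between -0.17 and 0.19. They were dim as well, with log2 signals of 6.50 to 7.11.

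**Figure D2:**
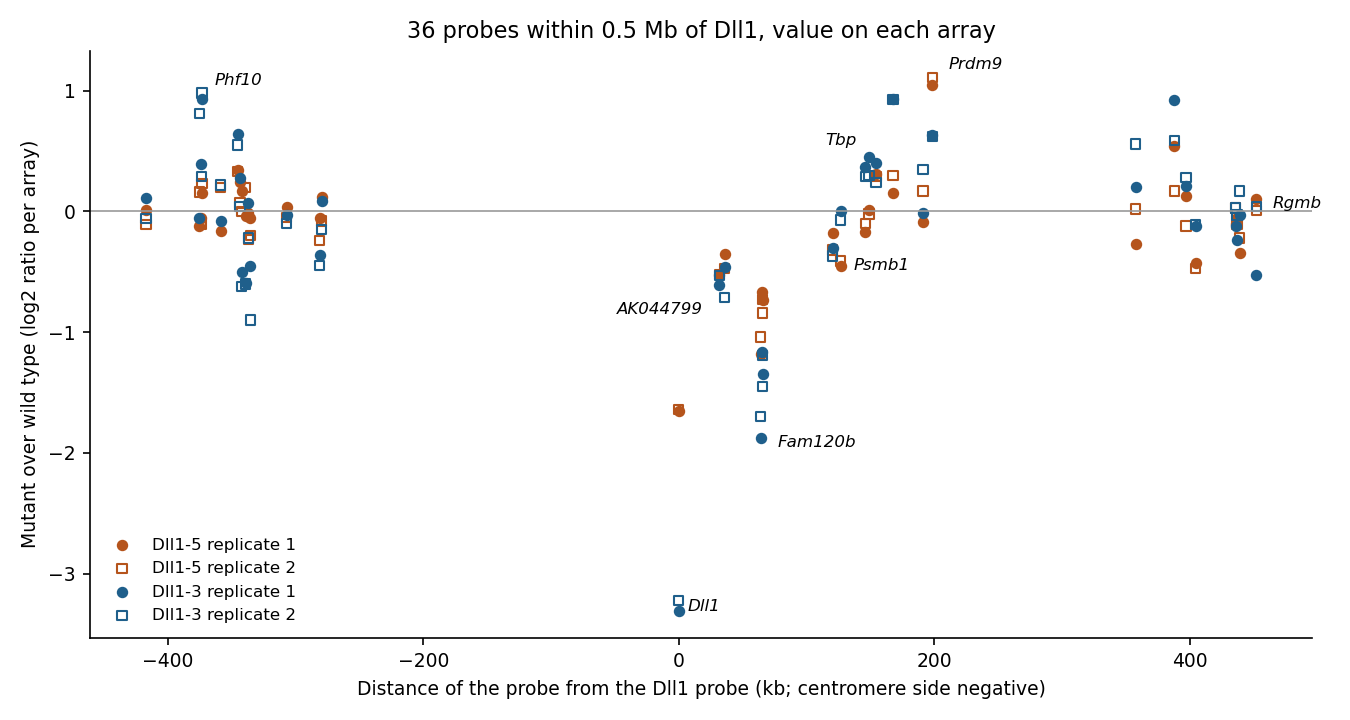
Log2 ratio of mutant over wild type on each of the 4 arrays (symbols) against distance from the Dll1 probe in kb, for the 36 probes within 0.5 Mb. Values at or below 0 on all arrays run from Dll1 to Psmb1, 126.7 kb away, and probes on the other side scatter around 0.

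Over all 36 probes within 0.5 Mb, the median ratio was -0.04 in Dll1-5 and -0.03 in Dll1-3. Leaving Dll1 out, 1 of 35 (2.86%) was 2-fold lower on all 4 arrays, against 2.25% on the array, and none was 2-fold higher. The median size of a ratio there was 0.13 in Dll1-5, where the whole segment had 0.16, and 0.34 in Dll1-3, where the segment had 0.20. Between 0.5 and 1 Mb there were 3 probes, and none of their line means was larger than 0.28 in size. From 1 to 2 Mb the median over 37 probes was -0.02 in Dll1-5 and 0.07 in Dll1-3. Over the 239 probes at 5 to 10 Mb it was 0.02 in Dll1-5 and 0.01 in Dll1-3, and over the 206 beyond 10 Mb it was 0.03 in Dll1-5 and 0.03 in Dll1-3.

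Between 2 and 5 Mb, the median over 45 probes was -0.10 in Dll1-5 and -0.02 in Dll1-3, and 4 of these probes (8.89%) were 2-fold lower on all arrays, against 2.25% of all probes. All 4 lay on the centromere side, where they were 13.8% of 29 probes and these had a median of -0.18 in Dll1-5 and -0.10 in Dll1-3. Across the segment, the size of the ratio and the distance from Dll1 had a Spearman correlation of 0.00 in Dll1-5 and -0.04 in Dll1-3 (566 probes, which share arrays and, in part, genes). Neighbouring genes had a correlation of 0.1 in each line over 405 pairs.

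**Figure D3:**
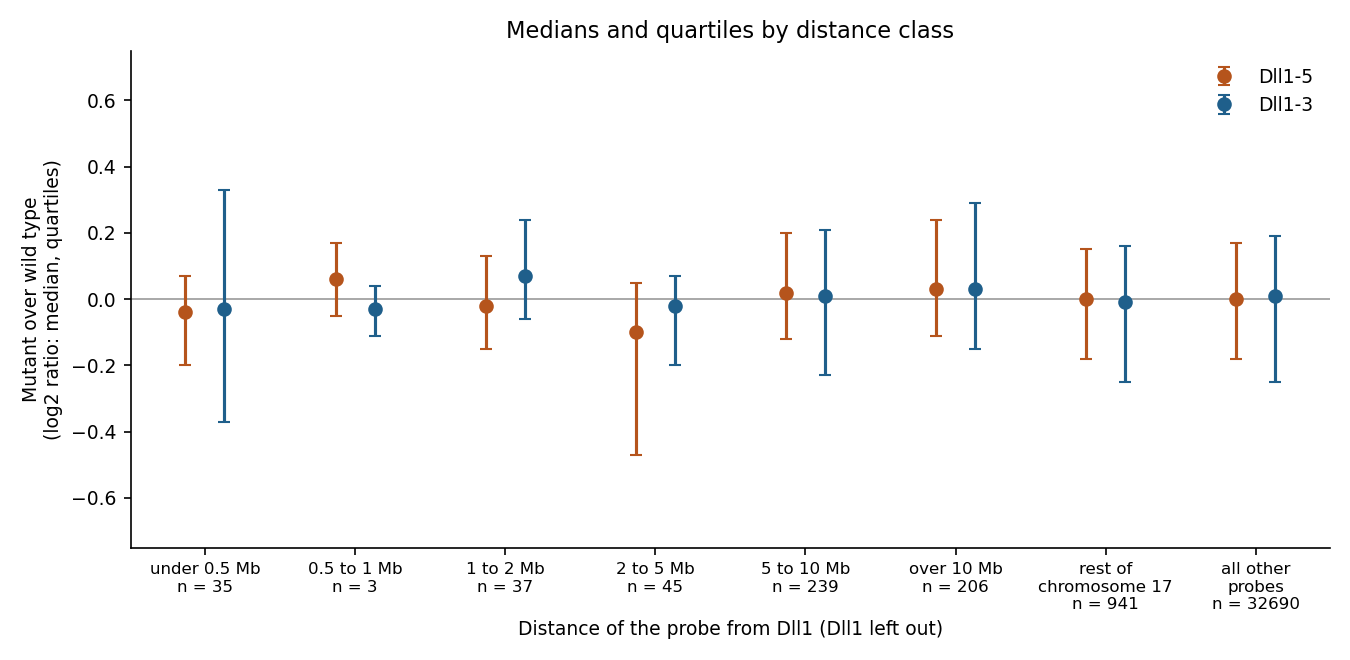
Median (point) and quartiles (bars) of the log2 ratio of mutant over wild type in Dll1-5 and Dll1-3 for probes grouped by distance from Dll1, with Dll1 left out, beside the rest of chromosome 17 and all other probes. Medians lie between -0.10 and 0.07, and the quartiles of every class span 0.

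The 8 probes that were 2-fold lower on all 4 arrays all lay below 21 Mb, and the 8 that were 2-fold higher all lay between 21 and 24 Mb, with boundaries drawn after the values were seen. With median centring, 1 of the same 8 lower and 4 of the same 8 higher probes stayed 2-fold on all arrays. Below 21 Mb the lower ones were 8 of 233 probes (3.43%), against 2.25% on the array. Between 21 and 24 Mb the higher ones were 8 of 173 (4.62%), against 1.41% on the array. Because the boundaries were drawn around the counted probes, that choice raised these shares, and no conclusion is drawn from them. With both channels required above background on all 4 arrays, 6 of the 8 higher probes were left. None of the 160 probes from 24 to 30 Mb was 2-fold on all arrays. The medians of these stretches stayed near 0, at -0.02, 0.04 and 0.04 in Dll1-5 and 0.02, 0.01 and 0.04 in Dll1-3 from the centromere on.

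Qk encodes an RNA-binding protein that controls splicing in glia and their precursors. Its probe at chr17:8851011-8851070 had ratios of -1.75 and -1.87 in Dll1-5 and -1.25 and -1.20 in Dll1-3. A second Qk probe, at chr17:8849549-8849608, had -0.68 and -1.25 in Dll1-5 and -0.64 and -0.97 in Dll1-3, and another was lower by less, with means of -0.65 in Dll1-5 and -0.24 in Dll1-3. The fourth, at chr17:8960576-8960635, went the other way in Dll1-5, at 2.22 and 2.03, and stood at 0.29 and 0.02 in Dll1-3. The 4 probes of Qk thus spread from -1.52 to 1.14 in their means over both lines, the widest spread of the 108 genes with several probes.

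Agpat4 makes phosphatidic acid from lysophosphatidic acid. One of its probes, at chr17:10859002-10859061, had ratios of -1.62 and -1.68 in Dll1-5 and -1.42 and -1.44 in Dll1-3. It averaged -1.54 ± 0.16 over the lines (SD, n = 2; adjusted p = 0.0752 by limma). The other Agpat4 probe overlaps it, so it is no independent measurement, and its mean was -1.49.

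Wtap, a subunit of the m6A RNA methyltransferase, had one probe at -1.44 and -1.83 in Dll1-5 and -1.20 and -1.63 in Dll1-3. Its other 3 measured probes had means over both lines between 0.01 and 0.06, including one next to it, so the low value rests on 1 probe of 4. Zfp945, a zinc finger gene, showed the same: its probe at chr17:20773670-20773728 had -1.34 and -1.21 in Dll1-5 and -1.36 and -1.29 in Dll1-3. The other 3 Zfp945 probes had means between -0.36 and 0.30. In all, 5 of the 108 genes with several probes had probes more than 1 apart in their means (Qk, Mapk8ip3, Zfp945, Wtap and Tulp4), and 27, Fam120b among them, had one sign on all arrays in all probes.

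The higher probes began with Dcpp2 at chr17:21683608-21683654, a secreted protein of the demilune cells of salivary glands. It had ratios of 1.67 and 1.85 in Dll1-5 and 2.00 and 2.05 in Dll1-3, with a mean of 1.89 ± 0.18 (SD, n = 2; adjusted p = 0.0752 by limma). In the deposited value table its mean was 3.79, below that of its neighbour Dcpp1. A probe beside it, which the files give the same clone name, matched its near-identical neighbour Dcpp1, and the array cannot be counted on to tell these genes apart. For Dcpp1 the wild-type channel was not well above background on any array, so it was at least 2.69-fold higher in Dll1-5 and at least 3.06-fold higher in Dll1-3. The predicted gene LOC620253, close by, was likewise dim in wild-type RNA, at least 2.43-fold higher in Dll1-5 and at least 2.86-fold higher in Dll1-3. These bounds set the mutant mean against the lowest signal that counted as above background.

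Nme4, the nucleoside diphosphate kinase of mitochondria, had 2 probes, both higher on all arrays. One had 1.51 and 1.61 in Dll1-5 and 1.94 and 1.95 in Dll1-3, and the other 0.80 and 1.18 in Dll1-5 and 1.11 and 1.26 in Dll1-3. Nme3, of the same family, had 0.77 and 0.84 in Dll1-5 and 0.78 and 0.79 in Dll1-3. The 3 probes of these kinases were higher on every array in both lines.

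Chtf18, a loader of the sliding clamp PCNA in DNA replication, had 1.14 and 1.14 in Dll1-5 and 1.86 and 1.72 in Dll1-3. Arhgdig, a GDP dissociation inhibitor of small GTPases, had 1.58 and 1.44 in Dll1-5 and 2.03 and 1.53 in Dll1-3. Mcrip2, a protein linked to stress granules, had 1.47 and 1.54 in Dll1-5 and 1.74 and 1.74 in Dll1-3. Jpt2, a protein of the Jupiter microtubule-associated family, had 1.26 and 1.42 in Dll1-5 and 1.69 and 1.73 in Dll1-3. In each of these 4 genes both Dll1-3 arrays were at least as high as the mean of Dll1-5, and limma's adjusted p lay between 0.0752 and 0.0882.

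**Figure D4:**
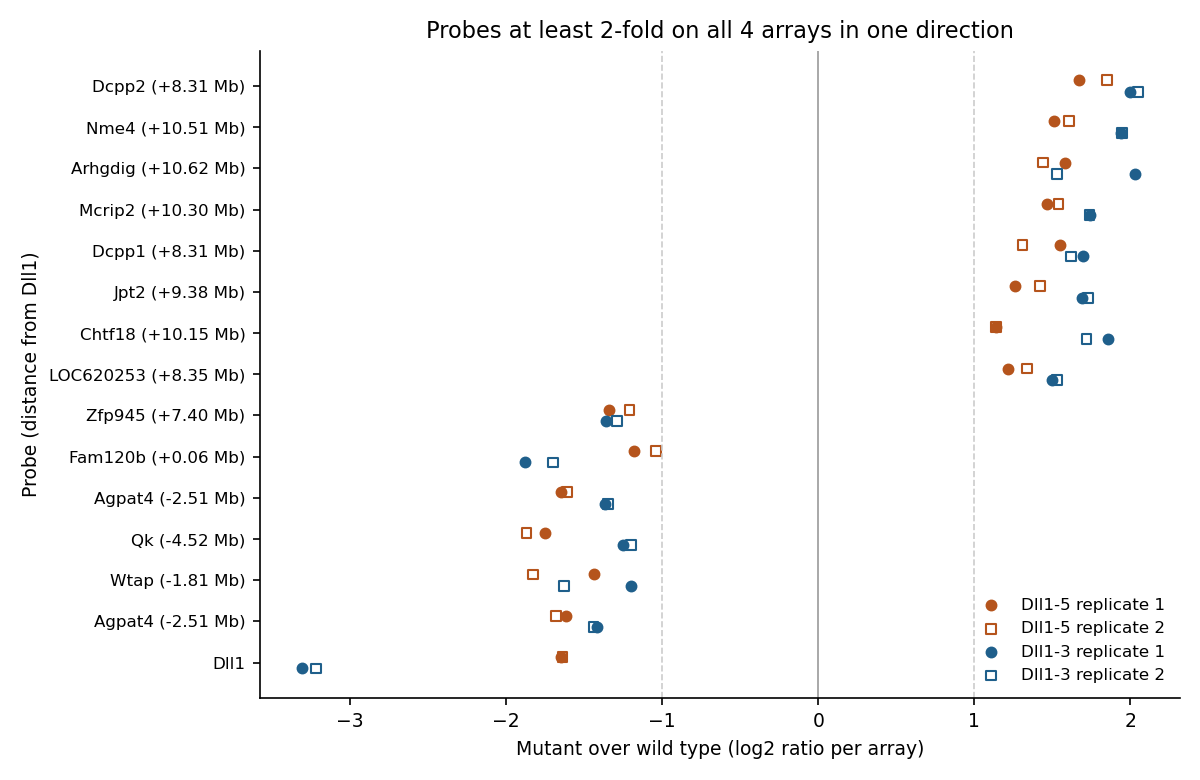
Log2 ratio of mutant over wild type on each of the 4 arrays for 15 of the 16 probes at least 2-fold in one direction on all of them, with their distance from Dll1 in Mb. The 8 higher probes lie 8.31 to 10.62 Mb away on the telomere side, which holds 433 of the 566 measured probes. Dll1 shows the widest gap between the lines, with -1.65 and -1.64 in Dll1-5 and -3.31 and -3.22 in Dll1-3.

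Taken line by line, 14 probes (2.47%) were 2-fold higher on both Dll1-5 arrays, where 2.56% of all probes were, and 11 (1.94%) were 2-fold lower, where 3.02% of all probes were. On both Dll1-3 arrays 22 probes (3.89%) were 2-fold higher, where 3.99% of all probes were, and 18 (3.18%) were lower, where 5.18% of all probes were. Among the genes 2-fold on both Dll1-3 arrays but not on both Dll1-5 arrays was Cdkn1a, the CDK inhibitor p21, with 0.73 and 0.43 in Dll1-5 and 1.72 and 1.61 in Dll1-3. Def6, an exchange factor for small GTPases, had 0.70 and 0.62 in Dll1-5 and 1.39 and 1.54 in Dll1-3. Tnfrsf12a, the receptor for TWEAK, had 0.56 and 0.70 in Dll1-5 and 1.34 and 1.35 in Dll1-3. With these probes all 3 were higher on all 4 arrays, and by more in Dll1-3. Def6 had other probes with smaller ratios: one had means of 0.21 in Dll1-5 and 0.57 in Dll1-3. Another had 0.38 in Dll1-5 and 0.11 in Dll1-3, the opposite order of the lines.

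Some genes were lower by more in one line. Mapk8ip3, a scaffold for JNK kinases and axonal transport, had -1.10 and -0.91 in Dll1-5 and -1.95 and -1.87 in Dll1-3 with one probe, while its other probe had 0.47 and 0.40 in Dll1-5 and -0.25 and -0.06 in Dll1-3. Haghl, a hydrolase related to glyoxalase 2, had -1.15 and -0.85 in Dll1-5 and -1.65 and -1.34 in Dll1-3. Pde9a, a phosphodiesterase for cyclic GMP, was the lowest Dll1-5 gene beyond 24 Mb, with -1.66 and -1.63 in Dll1-5 and -0.90 and -1.03 in Dll1-3.

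The lines were compared through their ratios to wild type. Both Dll1-5 arrays exceeded both Dll1-3 arrays by 1 or more at 5 of 566 probes (0.883%), where 1.63% of all probes did. Both fell below by 1 or more at 3 (0.53%), where 0.947% did. With each line read as 1 replicate, the difference was not tested. The 5 were Dll1, which was 1.62 higher in Dll1-5, the fourth Qk probe, Itpr3, Pi16 and one of 2 Sox8 probes. Sox8, a glial transcription factor, had -0.11 and -0.03 in Dll1-5 and -1.38 and -1.31 in Dll1-3 with that probe, and -0.74 and -0.85 in Dll1-5 and -1.47 and -1.33 in Dll1-3 with the other. Pi16, a secreted peptidase inhibitor family protein, had 1.46 and 1.70 in Dll1-5 and 0.08 and 0.34 in Dll1-3.

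Among the 3 lower in Dll1-5, Neurl1b, a ubiquitin ligase that acts on Notch ligands, had 0.69 and 0.71 in Dll1-5 and 1.76 and 1.96 in Dll1-3. It was higher than wild type on all 4 arrays, and by 1.16 less in Dll1-5. The other 2 were Hmga1, an architectural chromatin protein, and Ezr, the membrane-cytoskeleton linker ezrin. Their arrays lay on opposite sides of 0 in the lines: Hmga1 had -0.69 and -0.35 in Dll1-5 and 0.81 and 1.06 in Dll1-3. Opposite signs on all arrays of the lines were found at 55 probes (9.72%), where 10.1% of all probes showed them. Whether the lines were set against the same wild-type RNA is not clear from the labels.

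**Figure D5:**
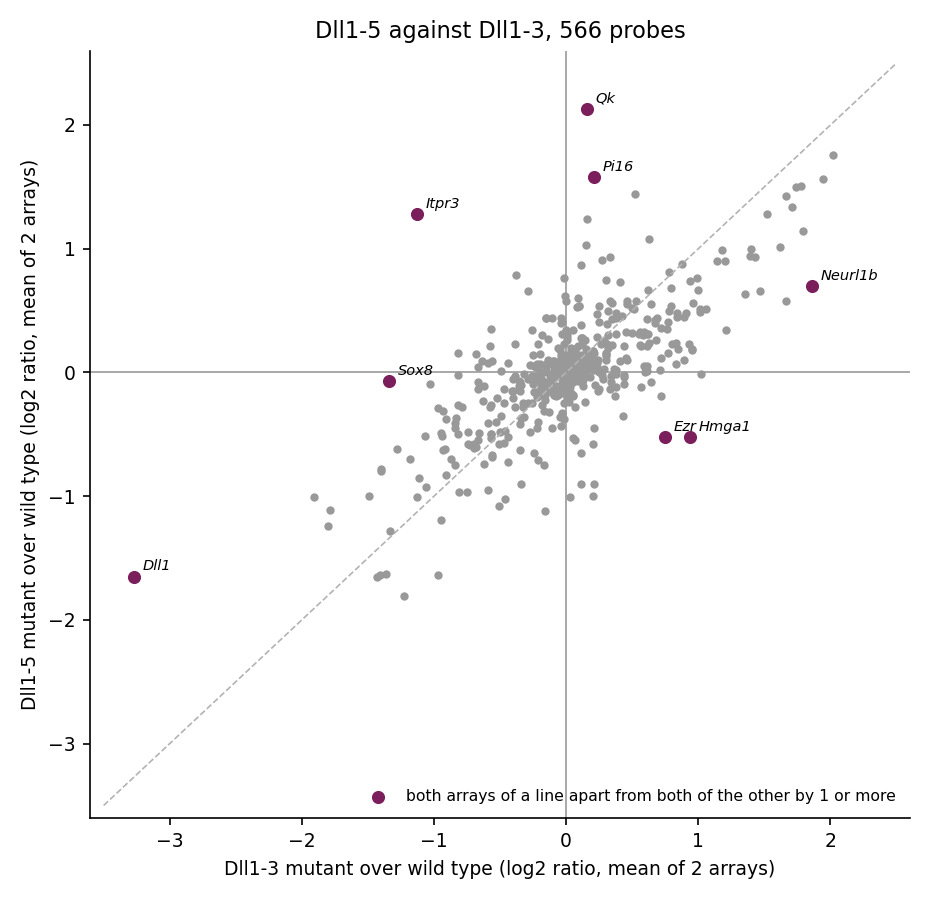
Mean log2 ratio of mutant over wild type in Dll1-5 (vertical axis) against Dll1-3 (horizontal axis) for 566 probes, with equality dashed. The 8 coloured probes are those where both arrays of a line were apart from both of the other by 1 or more, such as Itpr3 at 1.28 in Dll1-5 and -1.13 in Dll1-3.

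Gene lists for the segment gave the following counts, with no adjusted call in any of them. The 9 probes of t complex genes had medians of 0.10 in Dll1-5 and 0.59 in Dll1-3, where the segment had 0.02 in each line, with 3 higher at an unadjusted p under 0.05 (33.3%, against 11.7% of all probes) and 1 lower (11.1%, against 15.2%). The 3 were Tcp1, a chaperonin subunit, Nme3 and Tcte3. One Tcp1 probe had 0.92 and 0.60 in Dll1-5 and 1.16 and 0.83 in Dll1-3. In the imprinted Igf2r cluster, 9 probes had medians of 0.04 in Dll1-5 and 0.08 in Dll1-3, and 1 of them (11.1%) was higher at that level and none lower. It was 1 of 3 probes of Airn, the antisense RNA that silences Igf2r on the paternal allele, with 0.50 and 0.63 in Dll1-5 and 0.41 and 0.29 in Dll1-3. The other Airn probes had means over both lines of 0.09 and 0.20.

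A list of genes picked by name around Dll1 held Dll1 itself, reached to Rps6ka2 at -6.57 Mb, and left out AK044799, Chd1 and Rgmb. Its 27 probes had medians of -0.05 in Dll1-5 and -0.03 in Dll1-3. At an unadjusted p under 0.05, 8 were lower (29.6%, against 15.2% of all probes) and 3 higher (11.1%, against 11.7%). The 8 were Dll1 itself, the 4 Fam120b probes and 3 probes of Afdn, the junction protein afadin, at -1.51 to -1.40 Mb. Probes of the same gene are not independent, so this share does not count separate genes. By position, with Dll1 left out, 6 of the 35 probes within 0.5 Mb (17.1%) were lower at that level and 4 (11.4%) higher. Mitochondrial and metabolic genes had 19 probes with medians of 0.19 in Dll1-5 and 0.44 in Dll1-3, with 7 higher (36.8%, against 11.7% of all probes) and 1 lower (5.26%, against 15.2%). One probe of Glo1, which clears methylglyoxal, had 0.66 and 0.70 in Dll1-5 and 0.80 and 0.79 in Dll1-3, and the other had 0.12 and 0.26 in Dll1-5 and 0.08 and 0.22 in Dll1-3. Gfer, a sulfhydryl oxidase of mitochondria, had 0.32 and 0.50 in Dll1-5 and 0.69 and 0.85 in Dll1-3.

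Neural and transcription factor genes had 35 probes with medians of -0.10 in Dll1-5 and -0.03 in Dll1-3, with 8 lower (22.9%, against 15.2% of all probes) and 1 higher (2.86%, against 11.7%) at that level. Arid1b, a subunit of the BAF complex, had -1.12 and -1.25 in Dll1-5 and -0.94 and -0.96 in Dll1-3 with one probe. Phf1, a partner of Polycomb complex 2, was the higher one, with 0.86 and 1.02 in Dll1-5 and 1.20 and 1.59 in Dll1-3. The growth control and signalling genes had 36 probes, 5 higher (13.9%, against 11.7%) and 4 lower (11.1%, against 15.2%), with medians of 0.04 in Dll1-5 and -0.02 in Dll1-3. The 4 measured probes of formyl peptide receptors, sensors of bacterial peptides on white blood cells, had none past it, and their means over both lines lay between 0.02 and 0.08. These probes were dim, with log2 signals of 6.23 to 6.94.

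Per channel, 80% to 82.1% of probes passed the scanner's test against background. All 10 marker genes of neural stem cells and radial glia were above background in wild-type RNA on every array, and 9 of 10 were in mutant RNA, with medians of -1.10 in Dll1-5 and -0.86 in Dll1-3. Neuron markers were above background in 5 of 5, with medians of -1.10 in Dll1-5 and -1.12 in Dll1-3, and astrocyte markers in 4 of 5 in mutant and 5 of 5 in wild-type RNA, with medians of -0.49 in Dll1-5 and -0.88 in Dll1-3. Oligodendrocyte markers had medians of -0.37 in Dll1-5 and -0.68 in Dll1-3, and 3 of 5 microglia and blood markers and 2 of 5 endothelial and mural markers were above background. In bulk RNA, fewer cells of a type and less RNA per cell cannot be told apart, and the part of cell makeup in the ratios above was not tested.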

How the data were processed

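The authors deposited scanner output of 4 arrays with spot intensity values, read with Agilent Feature Extraction 8.1.1.1 per the file headers. These files and the deposited value table also hold log10 ratios. The table ran as wild type over mutant (r between -0.962 and -0.954 with scanner ratios turned to mutant over wild type), its column medians were -0.03, 0.01, -0.02 and 0.01, and its centring is not stated there.

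Mean signals were background-corrected with normexp (offset 50) and normalised with loess (span 0.3) in limma 3.58.1 and R 4.3.3, and summarised in Python 3.11.15 with pandas 2.3.3. This offset shrinks ratios at low signal. Control spots (2256 of 43790) and outlier spots were left out. Saturated spots stayed in. Values were averaged over the spots of a probe, and 34446 probes were kept where either RNA passed the scanner's background test on both of a line's arrays. Each line's dye swaps were averaged, and the 2 line means were tested against 0 with lmFit and eBayes (prior degrees of freedom 1.73), with Benjamini-Hochberg adjustment over all 34197 probes measured in both lines. Whether both arrays of a line carried identical pools is not clear from the labels. P-values measure only the spread between the 2 line means, moderated over probes. Whether this takes in any spread between wild-type pools is unknown, since the lines may have shared wild-type RNA.

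Members were placed by the first number of the file's coordinate, which was the higher of the 2 for 290 of them, and 23 probes on unplaced sequence of chromosome 17 were not included. Of the 624 members, 359 were named through accessions of RefSeq (GRCm38.p6), 94 by symbol, 53 by synonym and 118 by the file's own name. Genes were named in the text if they lay within 0.5 Mb of Dll1, were 2-fold on all 4 arrays, were among the 6 extremes per line or in the difference, or among the 4 largest of a list. Clone names outside those groups were passed over, and a few genes that qualify are left out here. LOC620253, the second probes of named genes and Afdn, Smoc2 and Thbs2 were added after their values were seen. The members, lists and rules were chosen with earlier results of these data known. Alternatives covered background, scaling, filters, arrays left out, blocks and thresholds.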

Additional observations from a re-analysis of the deposited data

Results flagged for a closer look

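Among the probes picked by the naming rule, 7 had the arrays of one line above 0 and those of the other below it. These differences between the lines were not tested, and 10.1% of all probes on the array showed the same, against 9.72% in the segment.

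Itpr3, a calcium channel of the endoplasmic reticulum, had ratios of 1.27 and 1.28 in Dll1-5 and -1.09 and -1.17 in Dll1-3, a difference of 2.41 between the line means. Hmga1 had -0.69 and -0.35 in Dll1-5 and 0.81 and 1.06 in Dll1-3, a difference of -1.46. Ezr had -0.41 and -0.63 in Dll1-5 and 0.90 and 0.60 in Dll1-3, a difference of -1.26. Igf2r, the receptor that clears insulin-like growth factor 2, had -0.75 and -1.04 in Dll1-5 and 0.30 and 0.12 in Dll1-3, a difference of -1.11.

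The other 3 lay within 0.5 Mb of Dll1 and were smaller. AK050117 had 0.17 and 0.00 in Dll1-5 (the second value lay above 0 only before rounding) and -0.50 and -0.62 in Dll1-3, a difference of 0.65. One Tbp probe differed by -0.46, with -0.17 and -0.10 in Dll1-5 and 0.37 and 0.29 in Dll1-3. The clone 1600012H06Rik differed by -0.42, with -0.05 and -0.11 in Dll1-5 and 0.39 and 0.29 in Dll1-3. The second Mapk8ip3 probe, which the rule did not pick, also had opposite signs, at 0.47 and 0.40 in Dll1-5 and -0.25 and -0.06 in Dll1-3.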

How the results depend on the processing

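Across the alternatives tried, Dll1 and Fam120b stayed lower in the mutants with each of their probes, and Dll1 kept means between -2.48 and -2.43 when any 1 array was left out. What changed most was the count of adjusted calls among the 566 probes, 0 as reported. It was 20 (3.53%, against 4.9% of all probes) with a background offset of 10, 11 (1.94%, against 2.78%) with scanner ratios, 22 (3.89%, against 5.09%) with a trend of variance on intensity, and 67 (11.8%, against 12.2%) at an adjusted threshold of 0.1. With 4 arrays as separate samples it was 178 (31.4%, against 33%) without a block, 153 (27%, against 28.1%) with a replicate block and 162 (28.6%, against 28%) with a random block for line. In those fits, Dll1, at -2.46 in each, had adjusted p-values of 0.004, 0.0256 and 0.00323. Those fits count both dye orientations of a line as samples. The replicate number marks the dye orientation. Across probes, the deviations of the replicate 1 arrays from their line means had a correlation of 0.678 between the lines. Arrays of the same orientation thus tended to deviate in the same direction in both lines. Because the number stands for orientation, no pairing of samples was drawn from it. Leaving out 1 array gave between 0 and 40 adjusted calls, 34 without Dll1-3 replicate 1 and 40 without Dll1-5 replicate 2. Dll1 passed in the last of these, at -2.46 with adjusted p = 0.0485, and its adjusted p lay between 0.0562 and 0.105 when another array was left out.

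The 2-fold counts on all 4 arrays, 8 higher and 8 lower, became 13 higher with an offset of 10, 18 and 17 with scanner ratios, 18 and 16 with the deposited table, 4 and 1 with median centring, and 24 and 26 at 1.5-fold. Median centring kept 4 of the same 8 higher and 1 of the same 8 lower probes, and the other normalisations kept all 16. In Dll1-5, the counts of 14 higher and 11 lower became 22 higher with an offset of 10, 30 and 27 with scanner ratios, 30 and 26 with the deposited table, 7 and 2 with median centring, and 36 and 38 at 1.5-fold. In Dll1-3, the counts of 22 higher and 18 lower became 28 lower with an offset of 10, 48 and 38 with scanner ratios, 47 and 37 with the deposited table, 13 and 3 with median centring, and 58 and 53 at 1.5-fold. Leaving out 1 array gave 8 to 11 higher and 8 to 10 lower on the rest, 14 to 19 higher and 11 to 19 lower in Dll1-5, and 22 to 27 higher and 18 to 28 lower in Dll1-3.

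For Dll1-5 against Dll1-3, the counts of 5 above and 3 below became 8 and 6 with an offset of 10, 16 and 14 with scanner ratios, 15 and 14 with the deposited table, 0 and 0 with median centring, 3 above with 1 probe a gene, and 18 and 24 at 1.5-fold. Leaving out 1 array gave 5 to 9 above and 4 to 7 below.

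The median of the segment over both lines was 0.05 with scanner ratios and with the deposited table and 0.03 with median centring, and 0.01 to 0.03 with 1 array left out. The median within 0.5 Mb without Dll1, -0.04, was -0.09 with scanner ratios and with the deposited table, 0.02 with 1 value a gene, and -0.05 to -0.03 with 1 array left out.

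The sign of the mean over both lines turned in 10 probes, of which Psmb1 (-0.23) and 1190001L17Rik (0.20) were the farthest from 0 as reported. They were TC1530268 at 0.00 without background correction, and Wdr27 at 0.04 with scanner ratios and 0.05 with the deposited table. With median centring they were NAP123843-1 at -0.01, one Ermard probe at 0.01, Psmb1 at 0.10 and Fpr2 at 0.00. With 1 array left out they were one Rgmb probe (-0.24 to 0.05), Fpr1 (-0.04 to 0.09), Fpr2 (-0.02 to 0.06), Fpr-rs3 (-0.10 to 0.15), Wdr27 (-0.06 to 0.03), 1190001L17Rik (-0.01 to 0.41), NAP123843-1 (-0.04 to 0.13) and TC1530268 (-0.06 to 0.05). The cause of these shifts was not tested. The number of arrays and dim signals, such as the wild-type channel of Dcpp1, limit the precision.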
